A study of Mus musculus with 18 samples.

Results

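The integrated stress response and its ATF4 program were followed through 35 genes, of the 78239 gene identifiers in the count tables. The genes were listed by their known roles in 6 branches, which hold 3 eIF2 kinases, 7 transcription factors, 6 feedback and effector genes, 8 enzymes of amino acid synthesis and one-carbon metabolism, 5 amino acid transporter genes and 6 cytosolic tRNA synthetases. Their RNA was measured by mRNA-seq in 2 experiments that compared a normoxia-stable mouse HIF1A (nsHIF1A), which escapes oxygen-dependent degradation, with eGFP. In the retina, an adeno-associated virus expressing *nsHif1a* or eGFP from the rod-specific mouse opsin promoter was injected subretinally at postnatal days 29 to 32, and whole retinas were collected at 3 weeks post injection (5 libraries of AAV::eGFP and 5 of AAV::*nsHif1a*). In vitro, 661W cells were transfected with a plasmid expressing *nsHif1a* or eGFP from the ubiquitous CMV promoter and harvested after 20 h (4 libraries each). The sample labels name the mouse strain C57BL/6J, whereas the study's methods name wild-type 129S6. The retinas held transduced rods beside untransduced rods and all other retinal cells. 661W is a single mouse line of retinoblastoma origin that is used as a photoreceptor-like cell, and 6 of 7 cone markers and 4 of 8 rod markers had fewer than 10 counts in every library of the cells. The labels do not say whether the cell libraries came from separate cultures, so the *p*-values measure the spread between these libraries.

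In the integrated stress response, kinases that sense unfolded protein in the endoplasmic reticulum, amino acid shortage, heme shortage or viral RNA phosphorylate the translation factor eIF2. General protein synthesis falls while the mRNA of the transcription factor ATF4 is translated more, and ATF4, with partners of the C/EBP family, activates genes for amino acid synthesis and transport, tRNA charging and feedback. The kinases and ATF4 itself act largely at the level of protein and translation, which RNA counts do not show.

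The libraries held 12898220 to 17809585 counts, so that 3 counts corresponded to 0.168 to 0.233 CPM (the count scaled to the TMM-adjusted total of its library), a limit that covers counting error only. In the cells, *Hif1a* was 150.0 to 164 CPM with eGFP and 1222 to 1954 CPM with *nsHif1a*. In the retina it was 638 to 698 CPM with AAV::eGFP and 642 to 729 CPM with AAV::*nsHif1a*, so the *Hif1a* counts did not separate the groups there, which stand as labelled. *Xist* had 19492 to 28595 counts in AAV::eGFP libraries 1 and 2 and in all 5 AAV::*nsHif1a* libraries, but 1 to 3 counts in AAV::eGFP libraries 3, 4 and 5, so that sex and treatment cannot be told apart in full. The summed level of 8 rod markers was 45249 to 50027 CPM with AAV::eGFP and 35237 to 47010.2 CPM with AAV::*nsHif1a*, and that of 8 lens markers was 978 to 3611 and 1097 to 19991 CPM, with *Lim2* at 0 in all retinas. Endothelial markers summed to 214 to 271 and 254 to 324 CPM, and microglial markers to 27.4 to 166 and 53.0 to 157 CPM. Most of the endothelial sum was *Kdr* alone, with means of 208 CPM (AAV::eGFP) and 250 CPM (AAV::*nsHif1a*). The *Xist* class and the lens share were each tried as a covariate in the retina, and the part of the other markers in its results was not tested. In a whole retina, fewer cells of a type and less RNA per cell cannot be told apart. In the cells, replicates 1 and 2 differed from each other by 1.54 to 1.58 times the sampling noise and replicates 3 and 4 by 1.48 to 1.60 times, against 3.48 to 8.38 times for libraries of different pairs within a group, so they are treated below as replicate sets, a division that the labels do not give.

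Most members were present at much lower levels in the retina than in the cells before any *nsHif1a* was added. Per kilobase of exon, and with 1 scaling over all 18 libraries, 30 members were higher in all 4 eGFP libraries of the cells than in all 5 of the retina, against 38% of all 20999 genes. *Eif2ak3*, which codes for the endoplasmic reticulum kinase PERK, and the cationic amino acid transporter gene *Slc7a3* were the opposite (48.3% of all genes), and the ranges of *Nupr1*, *Slc7a11* and *Wars1* overlapped. The member with the highest level in the AAV::eGFP retina was *Atf4* (79.8 ± 5.47 CPM per kilobase, SD, n = 5), followed by *Nars1* (47.4 ± 2.16) and *Nupr1* (46.4 ± 9.43), where *Nars1* and *Nupr1* did not differ beyond their spread. In the eGFP cells the first was *Nars1* (169 ± 6.14 CPM per kilobase, SD, n = 4), and *Phgdh* (113 ± 4.70), *Atf5* (112 ± 9.27), *Psat1* (111 ± 5.05), *Shmt2* (107 ± 2.184) and *Atf4* (105 ± 7.94) followed within their spread. The translation repressor gene *Eif4ebp1* ranked 9 of the 35 members in the cells and 33 in the retina. *Phgdh*, which codes for the first enzyme of serine synthesis, was the second in the cells and the fifteenth in the retina, at 7.49 ± 0.998 CPM per kilobase. However, 22.5% of the 50-base words of the *Phgdh* transcripts also occur in the predicted gene *Gm7901*, so its count is less certain. The secreted stress hormone gene *Gdf15* had 1 to 8 counts in the retinal libraries, at or near the limit of 3 counts, and was the only member too low to be tested there.

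**Figure D1:**
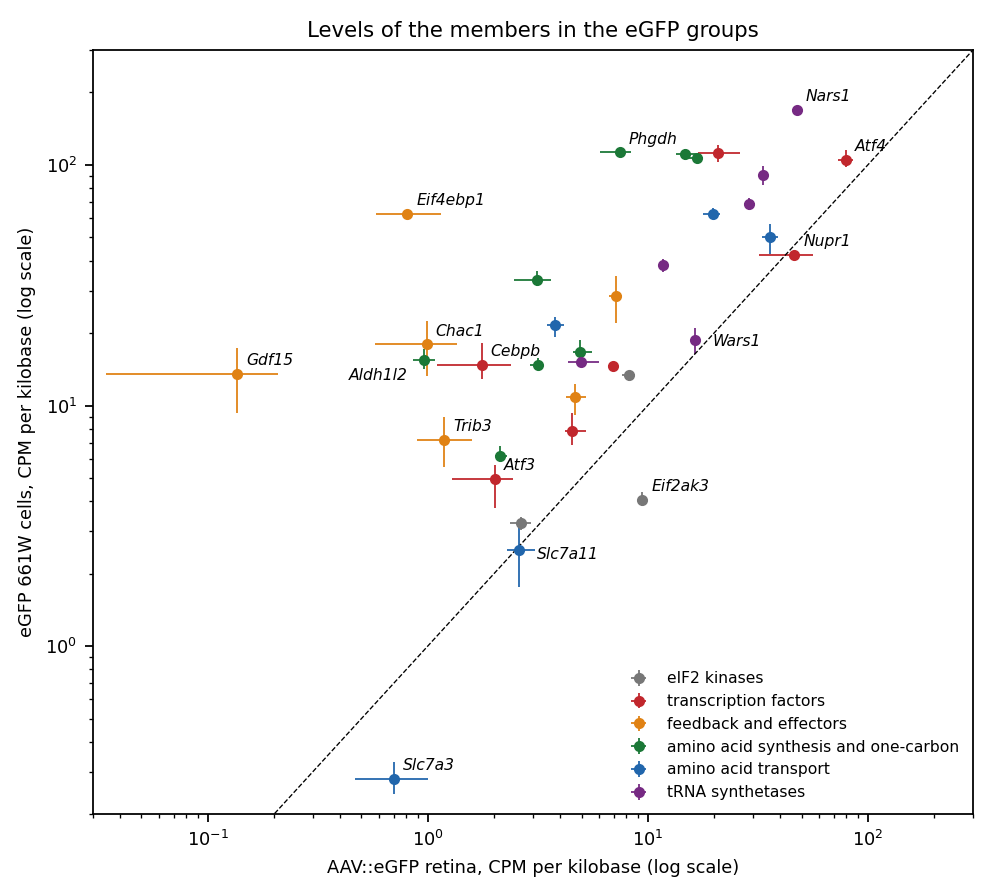
Levels of the 35 members in the eGFP groups, with CPM per kilobase of exon in the AAV::eGFP retinas (x axis, 5 libraries) against the eGFP 661W cells (y axis, 4 libraries), both on log scales; points are means, lines reach from the lowest to the highest library, colors give the branch and the dashed line marks equal levels. All but 4 points (*Eif2ak3*, *Nupr1*, *Slc7a11* and *Slc7a3*) lie above the dashed line, and *Gdf15* is far to the left at 0.136 CPM per kilobase in the retina.

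Promoters of some members carry letters that match the C/EBP-ATF response element (CARE), the composite sequence at which ATF4 and C/EBP proteins bind. In RefSeq promoters of 250 bases before and 50 bases after each gene's start (build GRCm38.p6), 27 members were found. TGATGNAAN, on either strand, was present in 8 of them (29.6%), against 4.496% of 27025 genes. The palindrome TGACGTCA of ATF and CREB proteins was found in 1 (3.70%, *Ppp1r15a*, against 2.03%), and the core of the hypoxia response element, ACGTG or GCGTG, at which HIF1 binds, in 22 (81.5%, against 46.7%). These are matches of letters, not bound sites. *Aldh1l2*, *Cars1*, *Cth*, *Eif4ebp1*, *Nars1*, *Slc7a3*, *Slc7a5* and *Wars1* had no entry in the promoter table. Windows around most of the matches are shown to compare the element between members that rose and members that did not, with the CARE or ATF/CREB letters in capitals and read 5′ to 3′ on the strand of the gene. The number in parentheses is the position of the leftmost capital counted from the start, where the base before the start is -1.
Atf3 (-111): ccttctcgcaCTTGCATCAccaagtccgc
Chac1 (-194): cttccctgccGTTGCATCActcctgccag
Trib3 (14): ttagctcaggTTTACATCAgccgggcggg
Nupr1 (-111): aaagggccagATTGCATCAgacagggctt
Slc7a11 (-66): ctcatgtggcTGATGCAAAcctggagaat
Slc7a11 (-48): acctggagaaTTTGCATCAtcatgcagcc
Asns (-23): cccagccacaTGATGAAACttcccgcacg
Gars1 (-31): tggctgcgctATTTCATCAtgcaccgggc
Ppp1r15a (-12): gcctctccggTGACGTCAgcacagcgccg

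Only a few members rose in the AAV::*nsHif1a* retina. Upregulation required a log2 fold change (log2FC) above 0.5 together with an adjusted *p*-value below 0.05. It held for 4 of the 34 members tested, *Atf3*, *Chac1*, *Trib3* and *Mthfd2*, and for 203 of all 18859 genes (1.08%). No member was downregulated, against 0.912% of all genes. With the adjusted *p*-value alone, 7 members were higher (3.31% of all genes), which adds *Atf4*, *Ppp1r15a* and *Sesn2*, and 0 were lower (2.47%). The log2FC was above 0 for 25 of 34 members (49.4% of all genes), with a median of 0.11 against 0.00 over all genes. For 7 members all AAV::*nsHif1a* libraries were above all AAV::eGFP libraries (3.25% of all genes), and for 0 all were below (2.69%).

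The largest increase in the retina was that of *Atf3*, which codes for a stress-induced transcription factor of the ATF/CREB family (ENSMUSG00000026628.14, GRCm39 chromosome 1, 190902493 to 190950241, minus strand). It had 3.06, 5.81, 5.45, 4.89 and 4.67 CPM in the AAV::eGFP libraries 1 to 5 and 7.57, 17.2, 15.3, 14.1 and 24.6 CPM in the AAV::*nsHif1a* libraries. The groups did not overlap, and library 1 was the lowest and library 5 the highest of the AAV::*nsHif1a* group. The log2FC was 1.69 (SE 0.29, adjusted *p* = 0.0057, limma with Benjamini-Hochberg adjustment as in all fits). It was called in all 10 fits that left out 1 library each. In the 7 retinas with *Xist* counts alone (2 against 5) the log2FC was 1.80 but no longer passed the test (adjusted *p* = 0.117), and with the *Xist* class as a covariate it was 1.79 (adjusted *p* = 0.048).

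The upstream part of its promoter is given here in full because *Atf3* was the member that moved most in both experiments, with *Chac1* beside it for comparison. Each line holds the 250 bases before the start in build GRCm38.p6, for *Atf3* chr1:191183334-191183583 on the minus strand and for *Chac1* chr2:119350992-119351241 on the plus strand, with the CARE letters in capitals.
Atf3: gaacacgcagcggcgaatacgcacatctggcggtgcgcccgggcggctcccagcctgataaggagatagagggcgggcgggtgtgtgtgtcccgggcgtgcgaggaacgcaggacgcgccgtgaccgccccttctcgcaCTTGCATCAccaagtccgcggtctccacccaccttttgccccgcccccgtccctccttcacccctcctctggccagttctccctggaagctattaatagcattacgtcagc
Chac1: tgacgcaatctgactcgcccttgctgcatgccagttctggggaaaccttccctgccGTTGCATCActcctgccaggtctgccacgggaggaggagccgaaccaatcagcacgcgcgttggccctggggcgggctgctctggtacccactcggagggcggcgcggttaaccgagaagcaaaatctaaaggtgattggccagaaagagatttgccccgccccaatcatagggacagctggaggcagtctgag

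*Atf4*, the central factor of the program (GRCm39 chromosome 15, 80139372 to 80141745, plus strand), changed far less than *Atf3*. It had 165, 161, 188, 185 and 176 CPM with AAV::eGFP and 199, 212, 208, 202 and 216 CPM with AAV::*nsHif1a*, so the groups were apart by a small step. Its log2FC was 0.25 (SE 0.05, adjusted *p* = 0.0087), which passed the test in all 21 alternative fits and was below the fold threshold in each. The other 5 transcription factors had a log2FC from 0.14 (*Atf5*) to 0.72 (*Cebpb*) and none passed the test. *Cebpb*, whose product is a C/EBP partner, had 1.60 to 3.49 CPM with AAV::eGFP and 2.62 to 7.57 CPM with AAV::*nsHif1a*, with overlapping groups (adjusted *p* = 0.129). *Ddit3*, which codes for the pro-apoptotic factor CHOP, had 22.7 to 28.4 CPM and 26.2 to 31.3 CPM (log2FC 0.23, adjusted *p* = 0.067). *Cebpg* was apart, with 32.2 to 35.2 CPM and 35.8 to 51.4 CPM, and did not pass the test either (adjusted *p* = 0.123).

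The feedback and effector genes had the largest median of the 6 branches in the retina, a log2FC of 0.63 over the 5 members tested. This median was 0.39 in the retinas with *Xist* counts alone and 0.38 with the *Xist* class as a covariate, smaller but still the largest. *Chac1*, which codes for an enzyme that degrades glutathione, had 3.13, 3.42, 1.98, 1.45 and 2.48 CPM with AAV::eGFP and 3.45, 4.79, 3.69, 6.89 and 7.89 CPM with AAV::*nsHif1a*. Its highest AAV::eGFP and lowest AAV::*nsHif1a* libraries were almost level, and the log2FC was 1.03 (SE 0.27, adjusted *p* = 0.047). *Trib3*, a pseudokinase gene whose product restrains ATF4, had 3.29, 4.46, 3.28, 5.09 and 2.86 CPM and 4.12, 6.05, 6.31, 6.54 and 9.43 CPM. AAV::*nsHif1a* library 1 lay within the AAV::eGFP range, and the log2FC was 0.76 (SE 0.21, adjusted *p* = 0.0496). *Ppp1r15a* (GADD34, the phosphatase subunit that reverses eIF2 phosphorylation) had 18.9 to 21.7 CPM and 24.4 to 30.9 CPM, with a log2FC of 0.33 (adjusted *p* = 0.021). *Sesn2*, which codes for a sestrin that senses leucine, had 16.8 to 20.7 and 18.4 to 30.4 CPM, with a log2FC of 0.46 (adjusted *p* = 0.029). *Eif4ebp1*, the gene of a translation repressor, had 1.49 to 2.97 and 2.70 to 3.72 CPM (log2FC 0.63, adjusted *p* = 0.056).

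Of the enzymes, the mitochondrial folate enzyme gene *Mthfd2* was the only one called in the retina, with 6.88, 7.88, 5.63, 8.26 and 7.001 CPM with AAV::eGFP and 8.47, 10.9, 10.002, 8.73 and 12.2 CPM with AAV::*nsHif1a*. The groups were apart, and the log2FC of 0.505 (SE 0.12, adjusted *p* = 0.032) lay just above the threshold. The other 7 enzymes had a log2FC between -0.25 and 0.18, among them *Asns* (asparagine synthetase) at 0.18, *Psat1* at 0.03, *Shmt2* at 0.00 and *Phgdh* at -0.14. None of the 5 transporter genes passed the test (log2FC -0.33 to 0.18). *Slc7a11*, the gene of the cystine/glutamate exchanger subunit xCT, had 25.3 to 33.98 CPM with AAV::eGFP and 29.5, 32.4, 27.9, 7.09 and 38.7 CPM with AAV::*nsHif1a*, so that library 4 stood far below the others. None of the 6 tRNA synthetases passed it (log2FC -0.01 to 0.25), although *Gars1* was apart with 76.6 to 82.9 and 83.2 to 112 CPM (adjusted *p* = 0.055). None of the 3 kinases did so either, with log2FC values of -0.09 for *Eif2ak1* (95% confidence limits -0.19 and 0.02), 0.09 for *Eif2ak3* (-0.02 and 0.20) and -0.13 for *Eif2ak4* (-0.28 and 0.01).

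Apart from *Atf3*, the calls in the retina depended on single libraries. Over the 10 fits that left out 1 library, the log2FC of *Trib3* was 0.66 to 0.87 with an adjusted *p*-value of 0.021 to 0.133, and it was called only without AAV::eGFP library 2 or AAV::*nsHif1a* library 1. *Chac1* (0.81 to 1.18, adjusted *p* = 0.032 to 0.143) was lost without AAV::eGFP libraries 3, 4 or 5 or AAV::*nsHif1a* libraries 2, 4 or 5. *Mthfd2* (0.43 to 0.55, adjusted *p* = 0.030 to 0.092) was lost without AAV::eGFP libraries 1, 3 or 5 or AAV::*nsHif1a* libraries 2, 3 or 5. Among the 7 retinas with *Xist* counts, the log2FC was 0.68 for *Trib3*, 0.57 for *Chac1* and 0.44 for *Mthfd2*, and none of them was called. With the lens share as a covariate *Atf3* (2.01), *Mthfd2* (0.61) and *Sesn2* (0.57) were called, whereas *Chac1* (1.20, adjusted *p* = 0.055) and *Trib3* (0.82, adjusted *p* = 0.099) kept their size and lost the test, as did *Ppp1r15a* (0.25, adjusted *p* = 0.131).

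**Figure D2:**
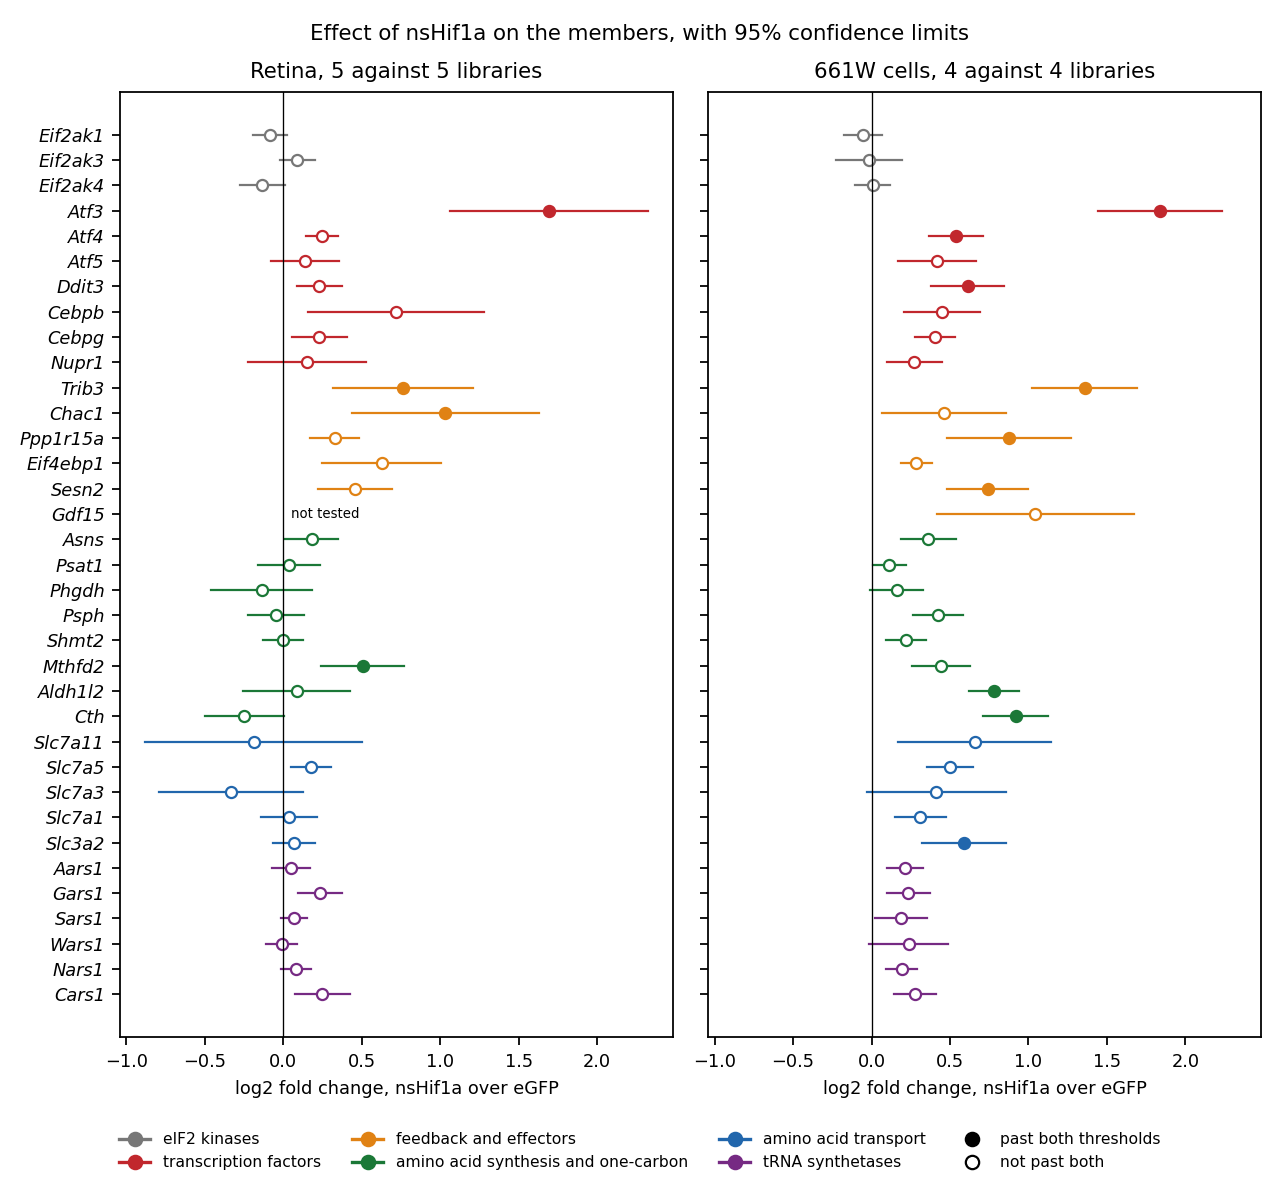
Log2 fold change of each member (rows, colored by branch) with its 95% confidence limits in the retina (left, 5 against 5 libraries) and in 661W cells (right, 4 against 4 libraries), where filled points passed both thresholds and open points did not. In the retina 4 members are filled and the enzymes, transporters and synthetases scatter around 0, whereas in the cells 9 are filled and all but 2 kinases lie to the right of 0.

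In the 661W cells the program rose more broadly. Of the 35 members, 9 were upregulated, *Atf3*, *Trib3*, *Cth*, *Ppp1r15a*, *Aldh1l2*, *Sesn2*, *Ddit3*, *Slc3a2* and *Atf4* in order of their log2FC, against 1.21% of all 15962 genes. No member was downregulated (0.0626% of all genes). With the adjusted *p*-value alone, 16 were higher (2.06% of all genes) and 0 lower (0.426%), which adds *Slc7a5*, *Mthfd2*, *Psph*, *Cebpg*, *Asns*, *Eif4ebp1* and *Cars1*. The log2FC was above 0 for 33 members (49.7% of all genes) with a median of 0.41 against 0.00 over all genes, and 28 members were apart between the groups and higher (7.51% of all genes) and 0 apart and lower (6.11%).

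*Atf3* again led, with 12.3, 9.53, 14.3 and 14.6 CPM in the eGFP libraries 1 to 4 and 51.1, 53.3, 33.2 and 42.4 CPM in the *nsHif1a* libraries. The groups were far apart, and the log2FC was 1.84 (SE 0.18, adjusted *p* = 0.0010). *Atf4* had 231, 233, 270.5 and 258 CPM with eGFP and 396, 381, 329.8 and 330.1 CPM with *nsHif1a*, with a log2FC of 0.54 (SE 0.08, adjusted *p* = 0.011). When the libraries were blocked by replicate number, *Atf4* had a log2FC of 0.51, which no longer passed the test (adjusted *p* = 0.052). *Ddit3* had 39.9, 39.9, 54.2 and 48.7 CPM and 73.3, 67.8, 67.7 and 68.8 CPM. It was thus about level over the 4 *nsHif1a* libraries and uneven over the eGFP libraries, with a log2FC of 0.61 (SE 0.10, adjusted *p* = 0.023). *Atf5*, *Cebpb*, *Cebpg* and *Nupr1*, a stress-induced chromatin-associated factor, were apart between the groups too, with log2FC values of 0.42, 0.45, 0.40 and 0.27, of which only *Cebpg* passed the test.

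Of the feedback genes, *Trib3* had 20.9, 19.2, 27.8 and 31.4 CPM with eGFP and 67.1, 69.1, 57.1 and 56.1 CPM with *nsHif1a* (log2FC 1.36, SE 0.15, adjusted *p* = 0.0024). *Ppp1r15a* had 70.0, 67.9, 105 and 107 CPM and 141, 145, 173 and 180.0 CPM (log2FC 0.88, SE 0.18, adjusted *p* = 0.039). Both were apart, but *Trib3* was highest in *nsHif1a* replicates 1 and 2 and *Ppp1r15a* in replicates 3 and 4. *Sesn2* had 38.5 to 53.2 and 70.4 to 82.3 CPM (log2FC 0.74, adjusted *p* = 0.014). *Chac1*, called in the retina, had 39.5, 35.98, 60.3 and 59.0 CPM with eGFP and 69.3, 65.6, 61.3 and 65.7 CPM with *nsHif1a*. Its eGFP replicates 3 and 4 came close to the *nsHif1a* group, and it did not pass the test (log2FC 0.46, adjusted *p* = 0.182). *Gdf15* had 21.7, 23.9, 40.6 and 41.6 CPM and 81.0, 84.4, 42.0 and 51.4 CPM, a wide spread within both groups, with a log2FC of 1.04 (SE 0.28, adjusted *p* = 0.080).

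The enzymes rose in part. *Cth*, which codes for cystathionine gamma-lyase of the transsulfuration pathway that makes cysteine, had 29.1, 27.6, 27.5 and 31.8 CPM with eGFP and 58.2, 63.0, 49.7 and 48.0 CPM with *nsHif1a* (log2FC 0.92, SE 0.09, adjusted *p* = 0.0015). The mitochondrial folate enzyme gene *Aldh1l2* had 92.9, 90.6, 109 and 101 CPM and 167, 156, 182 and 174 CPM (log2FC 0.78, SE 0.07, adjusted *p* = 8.5e-04). *Aldh1l2* kept close within each group, whereas *Cth* was higher in *nsHif1a* replicates 1 and 2 than in 3 and 4. The increase of both genes was well beyond the spread. *Psph* (phosphoserine phosphatase), *Mthfd2* and *Asns* passed the test with log2FC values of 0.43, 0.44 and 0.36, below the fold threshold, whereas *Shmt2* (0.22), *Phgdh* (0.16) and *Psat1* (0.11) did not. *Psph*, *Mthfd2* and *Asns* each passed in 16 of 20 alternative fits, and not when the libraries were blocked by replicate number. Of the transporter genes, *Slc3a2*, which codes for the heavy chain CD98 that pairs with the SLC7 light chains, had 186, 184, 245 and 251 CPM and 324, 315, 326 and 330.2 CPM (log2FC 0.59, adjusted *p* = 0.038). Its light chain partner *Slc7a5* (LAT1) had 219 to 241 and 291 to 352 CPM, with a log2FC of 0.4996 just under the threshold (adjusted *p* = 0.0061). *Slc7a11* had 20.6, 22.5, 36.7 and 39.3 CPM with eGFP and 41.6, 39.8, 49.3 and 51.8 CPM with *nsHif1a*, and did not pass the test (log2FC 0.66, adjusted *p* = 0.137). The 6 tRNA synthetases moved least among the branches downstream of ATF4, with log2FC values of 0.19 to 0.28, and *Cars1* alone passed the test (adjusted *p* = 0.045). *Cars1* passed in 12 of 20 alternative fits, and not with that block. The kinases were near 0, with log2FC values of -0.05 for *Eif2ak1* (95% confidence limits -0.17 and 0.07), -0.02 for *Eif2ak3* (-0.23 and 0.19) and 0.01 for *Eif2ak4* (-0.10 and 0.12).

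*Atf3*, *Trib3*, *Cth*, *Aldh1l2* and *Sesn2* were called in all 8 fits that left out 1 library. The number of called members was 5 without eGFP library 1 and without eGFP library 2, where *Ddit3*, *Ppp1r15a* and *Slc3a2* lost the test and *Atf4* fell below the fold threshold, 15 without eGFP library 3, and 14 without eGFP library 4 or *nsHif1a* libraries 3 or 4. The share of all genes upregulated was 0.503% and 0.534% without eGFP libraries 1 and 2 and 1.33% and 1.27% without eGFP libraries 3 and 4, but 7.43% and 7.39% without *nsHif1a* libraries 3 and 4, so those counts of members stand on unlike backgrounds. *Atf4* also fell below the fold threshold without *nsHif1a* library 1 (log2FC 0.43) or 2 (0.43), where *Slc7a11* passed instead. With the counts of each replicate set summed (2 against 2), limma called 0 of all 18117 genes, so the fit does not bear on the members apart, and 19 members had an unadjusted *p*-value under 0.05, against 5.08% of all genes.

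**Figure D3:**
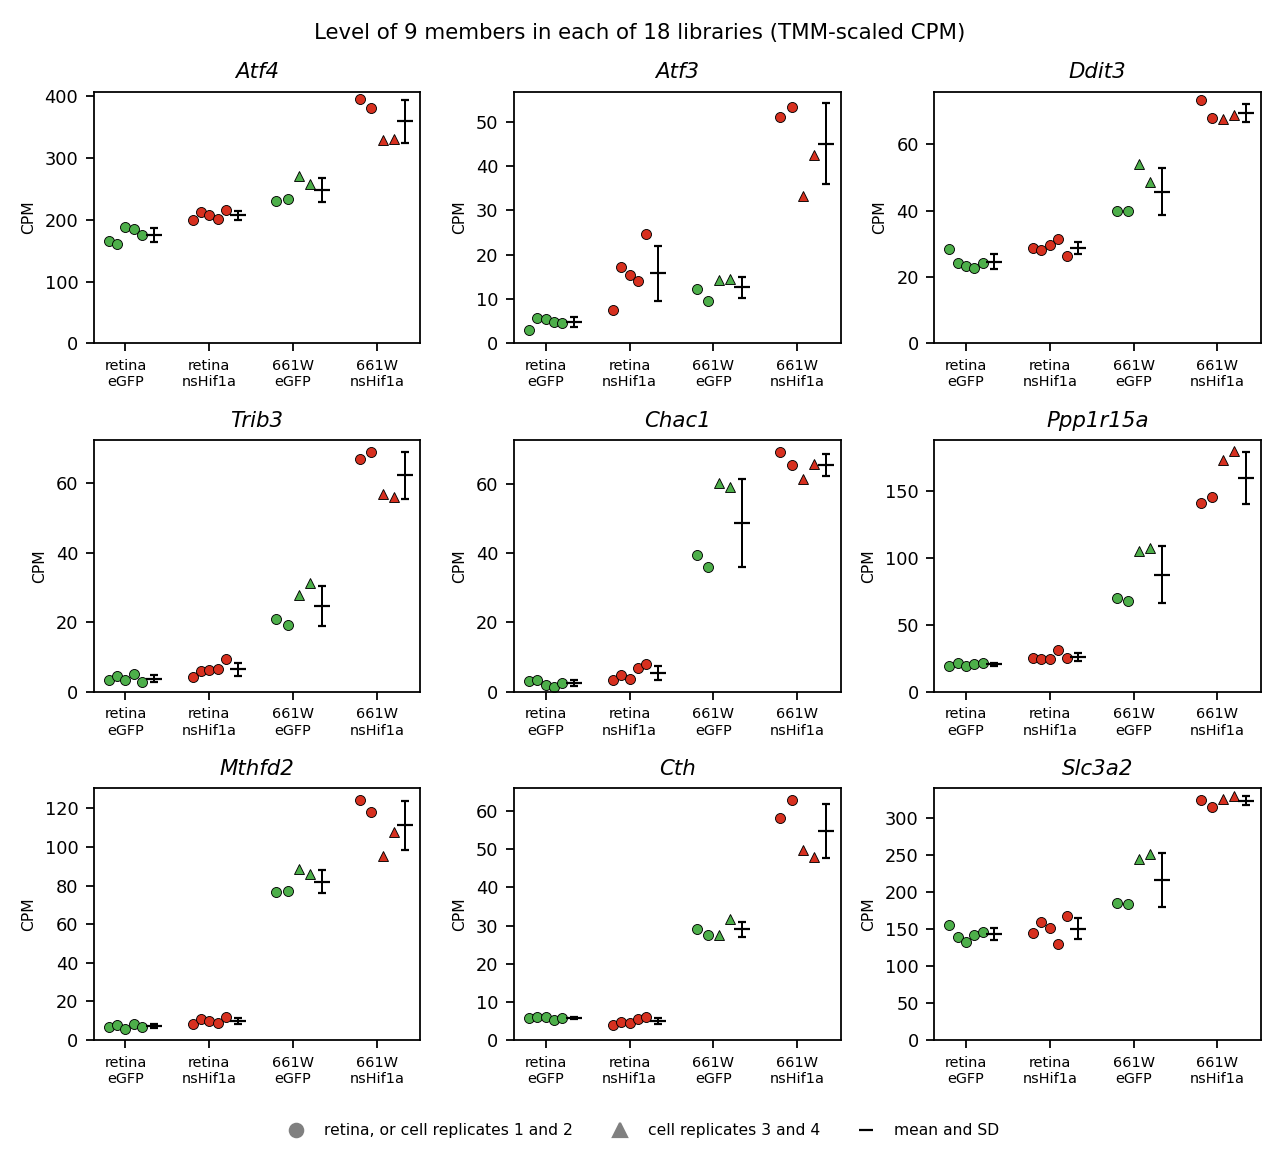
CPM of 9 members in each library of the 4 groups, on linear axes from 0, with eGFP in green, *nsHif1a* in red, replicates 3 and 4 of the cells as triangles, and the mean and SD beside each group. The groups do not overlap in either experiment for *Atf3*, *Atf4*, *Chac1*, *Ppp1r15a* and *Mthfd2*. For *Ddit3*, *Trib3*, *Cth* and *Slc3a2* they are apart in the cells alone. In the cells the circles and triangles of the eGFP group lie apart for *Chac1*, *Ppp1r15a* and *Slc3a2*, among others.

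The effect of *nsHif1a* on each member was compared directly between the 2 experiments over all 18 libraries, as retina minus cells. The experiments differed in cell type, promoter, delivery and time, and the retinas held untransduced cells. The part of each in a difference cannot be told apart. Of the members, 29 of the 34 tested in both had the larger log2FC in the cells, against 48.8% of all genes. The difference passed the test for 3 members, all lower in the retina (1.25% of all 20999 genes), and for 0 in the other direction (1.08%). *Cth* differed by -1.13 (SE 0.17, adjusted *p* = 0.0021), with 5.81, 6.07, 6.00, 5.35 and 5.72 CPM in the AAV::eGFP retinas and 3.97, 4.66, 4.54, 5.66 and 6.16 CPM with AAV::*nsHif1a*, so the groups overlapped in the retina, against 27.5 to 31.8 and 48.0 to 63.0 CPM in the cells. *Slc3a2* differed by -0.54 (SE 0.13, adjusted *p* = 0.033), with 133 to 156 and 129 to 167 CPM in the retina. *Psph* differed by -0.45 (SE 0.11, adjusted *p* = 0.038), with 13.9 to 15.9 and 13.0 to 17.7 CPM. *Cth* passed in all 22 alternative fits, *Slc3a2* in 15 and *Psph* in 7. The number that passed was 9 without *nsHif1a* library 3 or 4 of the cells, where 6.79% and 6.75% of all genes passed in this direction, 8 (1.70%) without eGFP library 3, 6 (1.57%) without eGFP library 4 and 5 (1.51%) without AAV::*nsHif1a* library 5, while *Cth* was alone without eGFP libraries 1 or 2 of the cells, AAV::eGFP libraries 4 or 5 or AAV::*nsHif1a* libraries 3 or 4. When the cells were blocked by replicate number, *Aldh1l2* and *Ppp1r15a* passed too and *Psph* did not. *Atf3* (-0.10, 95% confidence limits -0.87 and 0.66), *Trib3* (-0.58, -1.22 and 0.06) and *Chac1* (0.56, -0.36 and 1.48) did not pass, and their limits are wide.

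In the cells, the size of the response differed between the replicate sets. Of the 35 members, 32 had the larger log2FC in replicates 1 and 2 than in replicates 3 and 4 (49.7% of all genes), with medians of 0.53 and 0.21. The difference passed the test for 25 members, against 9.8% of all genes in this direction, and for 0 in the other (9.82%). These *p*-values rest on the small spread within the sets, which may be technical. The sets were drawn from the likeness of these same libraries, so a smaller spread within than between them was given beforehand. The *p*-values are therefore no separate support for the sets, and the same limit holds for the calls within 1 set. *Gdf15* differed most, with a log2FC of 1.86 in replicates 1 and 2 and 0.18 in replicates 3 and 4 (difference 1.68, adjusted *p* = 2.7e-09). *Atf3* had 2.26 and 1.38, *Trib3* 1.76 and 0.95, *Chac1* 0.84 and 0.09, and *Atf5* 0.73 and 0.08. *Aldh1l2* (0.82 and 0.76), *Psat1* (0.11 and 0.10) and the kinases were among the 10 members whose sets did not differ by the test. The levels of both groups differed between the sets. The eGFP replicates 1 and 2 were both below replicates 3 and 4 for 27 members (28.1% of all genes), *Slc7a11*, *Ppp1r15a* and *Chac1* among them, and the *nsHif1a* replicates 1 and 2 were both above replicates 3 and 4 for 22 members (33.4% of all genes), *Atf3*, *Atf4* and *Gdf15* among them. The *Hif1a* level went the other way, with 1222 and 1241 CPM in *nsHif1a* replicates 1 and 2 and 1954 and 1825 CPM in replicates 3 and 4. Within replicates 1 and 2 alone 18 members were upregulated, against 7.6% of all genes. Within replicates 3 and 4 it was 5, *Atf3*, *Trib3*, *Cth*, *Aldh1l2* and *Ppp1r15a*, against 1.14% of all genes.

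**Figure D4:**
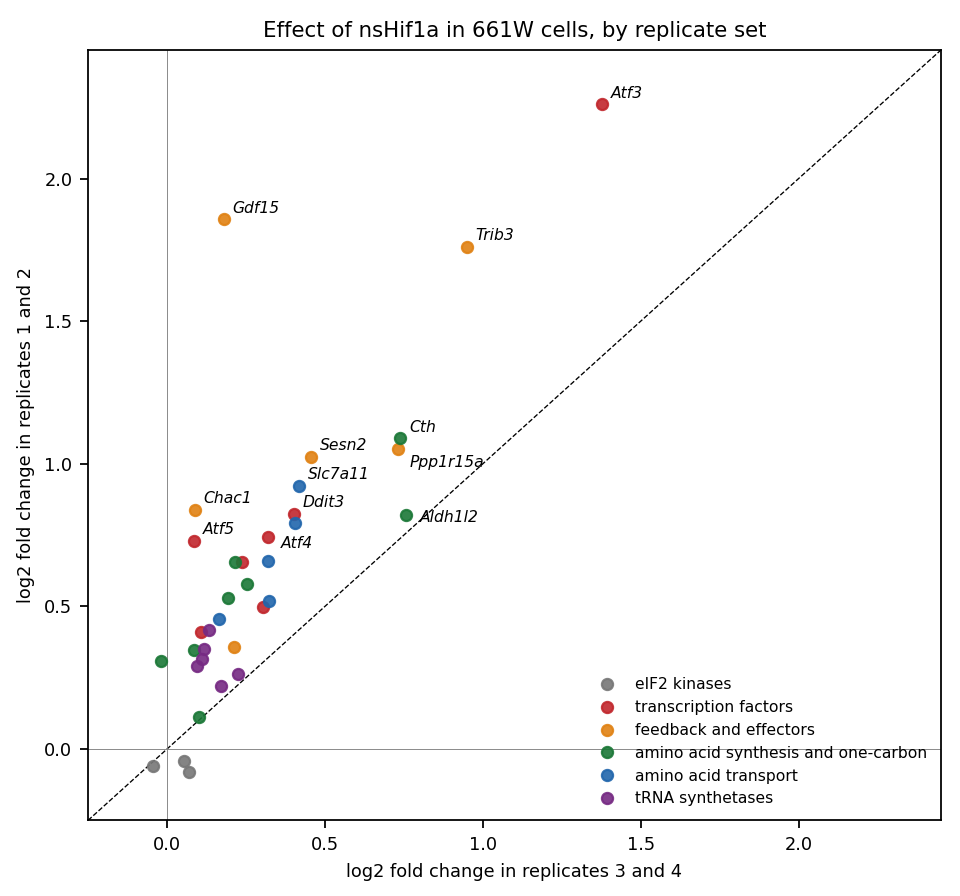
Log2 fold change of each member in 661W cells within replicates 1 and 2 (y axis) against replicates 3 and 4 (x axis), colored by branch, with the dashed line at equal effects. All but the 3 kinases lie above the dashed line, *Gdf15* farthest from it, while *Aldh1l2* lies close to it.

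Single retinas differed in how far the members moved. Relative to the AAV::eGFP mean, the median member of the AAV::*nsHif1a* libraries 1 to 5 was changed by 0.03, 0.18, 0.11, -0.01 and 0.30 on the log2 scale, computed as log2 of CPM + 1. Library 5 was the highest of its group for 27 of the 35 members, and libraries 1 and 4 were the lowest for 14 and 15. These counts were not made over all genes, so they cannot be called particular to the members. Library 5 also had the lowest summed level in its group of rod (35237 CPM), cone (771 CPM), Muller glia (3097 CPM) and lens markers (1097 CPM). The same held for bipolar, amacrine and ganglion markers (1585 CPM). It had the highest sums of endothelial (324 CPM) and microglial markers (157 CPM). Library 4 had the highest of lens (19991 CPM) and RPE markers (772 CPM). Over the same 5 libraries the *Hif1a* level was 642, 683, 729, 683 and 699.7 CPM. Without library 5, *Atf3* had a log2FC of 1.56 and was the only member called.

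**Figure D5:**
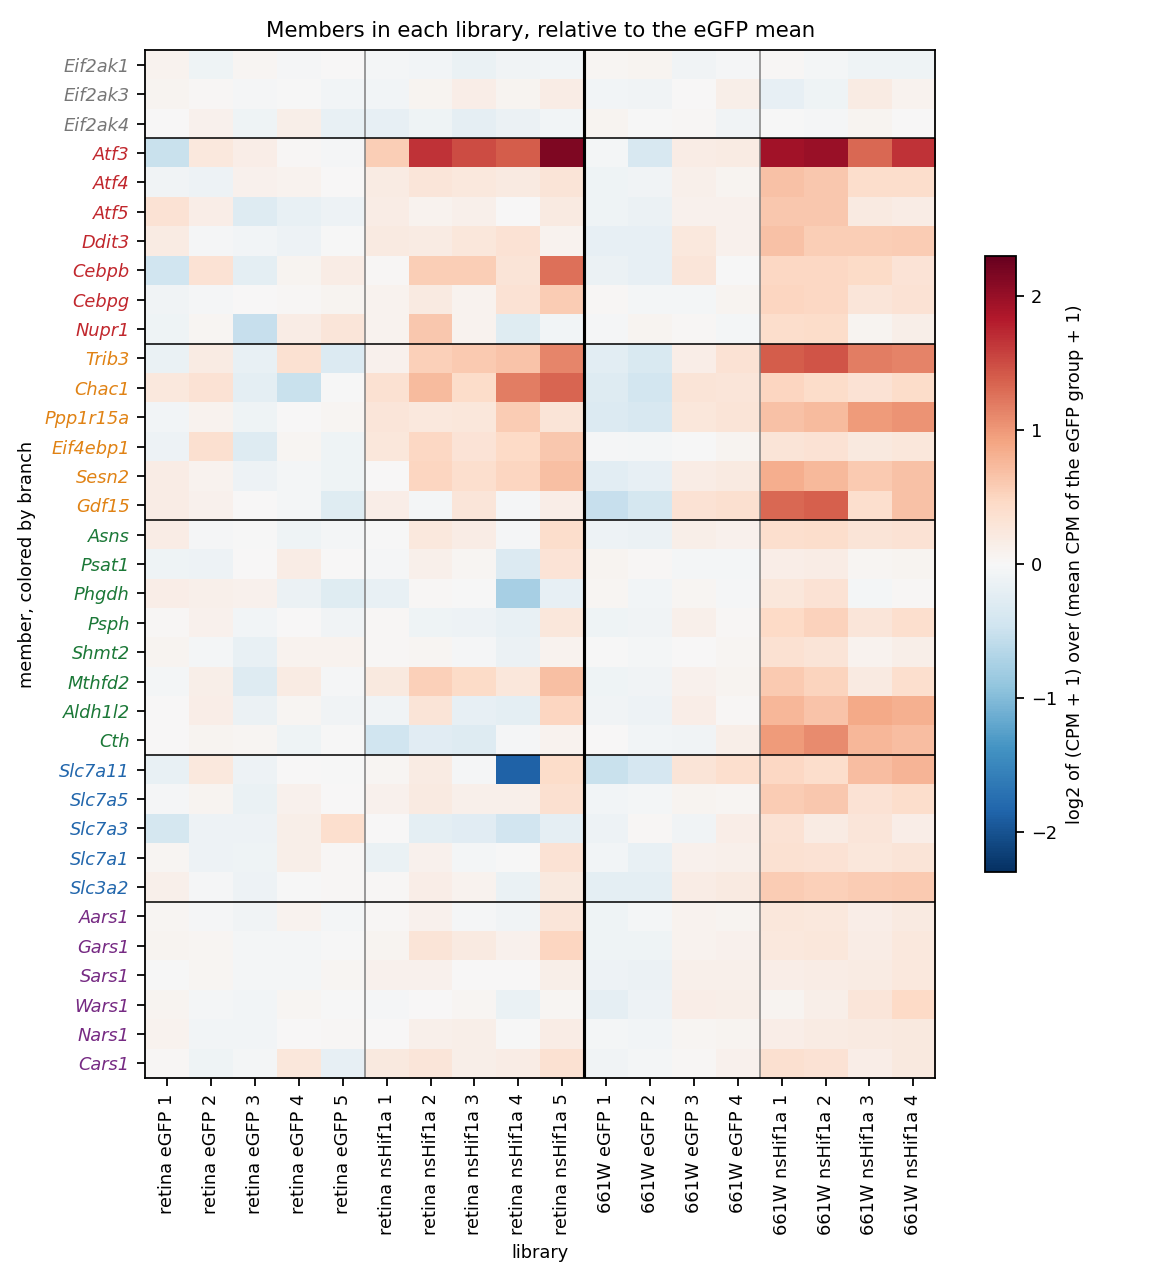
Log2 ratio of CPM + 1 of each member (rows, grouped and colored by branch) to the mean of the eGFP group of the same experiment + 1, in each of the 18 libraries (columns); red is higher and blue lower. The *nsHif1a* columns are red for *Atf3* and *Trib3* in both experiments and for most rows in the cells, retina library 4 shows the low *Slc7a11* value, and eGFP replicates 1 and 2 of the cells are paler or bluer than replicates 3 and 4 in most rows.

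Other genes of the pathway were counted from 5 lists of neighboring functions. Of 24 further genes described as ATF4 targets, 4 of the 23 tested in the retina were upregulated, against 1.08% of all genes. In the cells it was 12 of the 21 tested, against 1.21% of all genes. None was downregulated, against 0.912% of all genes in the retina and 0.0626% in the cells. Several of the 24 are also known HIF1 targets, so they are no separate measure of the ATF4 program. The upregulated genes in the retina were *Stc2*, *Mthfd1l*, *Vegfa* and *Ddit4*. *Stc2*, the gene of a secreted glycoprotein, rose from 34 to 75 counts in the AAV::eGFP libraries to 206 to 736 counts in the AAV::*nsHif1a* libraries (log2FC 2.92, adjusted *p* = 0.0010). *Mthfd1l*, a mitochondrial folate enzyme gene like *Mthfd2*, had 150 to 194 and 284 to 609 counts (log2FC 1.35, adjusted *p* = 0.0013). *Vegfa*, the angiogenic growth factor gene, and *Ddit4*, whose product inhibits mTORC1, had log2FC values of 0.81 and 0.66. The largest increases in the cells were those of *Vldlr* (a lipoprotein receptor gene, log2FC 1.52), *Ddit4* (1.18), *Gadd45a* (a growth arrest gene, 1.003), *Stc2* (0.95) and *Slc6a9* (the gene of a glycine transporter, 0.91). The effect was larger in the retina for *Stc2* and *Mthfd1l* and smaller there for *Vldlr*, *Slc6a9* and *Gadd45a* by the test of the difference.

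The remaining lists gave 1 call. Among 14 genes of the ATF6 and IRE1 arms of the unfolded protein response, 0 were called in either experiment. With the adjusted *p*-value alone, 4 were higher in the retina (3.31% of all genes) and 5 in the cells (2.06% of all genes). The median log2FC of the 14 was 0.12 (retina) and 0.20 (cells). Of 14 further regulators of eIF2 and eIF2B, 14 other cytosolic tRNA synthetases and 17 mitochondrial tRNA synthetases, the only call was *Wars2*, the gene of the mitochondrial tryptophanyl-tRNA synthetase, which fell in the retina (141 to 191 and 97 to 181 counts, log2FC -0.54, adjusted *p* = 0.018). Over all genes, 0.912% were downregulated in the retina. With the adjusted *p*-value alone, 5 of the other cytosolic synthetases and 1 of the eIF2 and eIF2B regulators were higher in the cells (2.06% of all genes). In the retina, 1 of these regulators and 2 mitochondrial synthetases were lower (2.47% of all genes). The other such counts of these 3 lists were 0. In the retina the median log2FC of these 3 lists was 0.05, 0.06 and -0.13, and in the cells it was -0.06, 0.03 and -0.05.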

How the data were processed

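The RNA of whole retinas and 661W cells was sequenced from stranded, paired-end mRNA libraries. The authors aligned the reads to GRCm39 with Rsubread 2.18.0 and counted them per gene and by strand with featureCounts, and the deposited values are raw counts per gene and library. All per-sample columns were used. Genes with low counts were removed (filterByExpr, minimum count 10), libraries were scaled by TMM (edgeR 4.0.16), and voom with sample quality weights and limma 3.58.1 (R 4.3.3) were fitted over all genes of each experiment, with Benjamini-Hochberg adjustment and 95% confidence limits. The difference between experiments was fitted over all 18 libraries, and the replicate sets within the cells. The fits were run on simulated data with known changes. Those data held no replicate sets, *Xist* classes or lens share, so they do not bear on the part of these in the results. CPM used TMM library sizes, with no prior for the values per library.

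The members and lists were chosen with earlier results of these data known. All 35 members are reported by role, and of the pathway lists the called genes, at most 5 per list and experiment by absolute log2FC. A second, nested identifier of *Ddit3* had 0 counts in all libraries. In the cells, same-numbered replicates of the groups deviated together (correlations 0.23 to 0.27 over genes), so blocked values are given where they change a call. However, eGFP replicate 1 was most like *nsHif1a* replicate 2, and eGFP replicate 2 most like *nsHif1a* replicate 1. A pairing by number within replicates 1 and 2 is thus not shown. Some sequence windows are not reported here.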

Additional observations from a re-analysis of the deposited data

Results flagged for a closer look

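The effect of *nsHif1a* differed between the retina and the cells for 3 members by the test of the difference (retina minus cells, on the log2 scale). These were *Cth* (-1.13), *Slc3a2* (-0.54) and *Psph* (-0.45), each with the smaller effect in the retina. Of the named further ATF4 targets, *Vldlr* (-1.31), *Gadd45a* (-0.95) and *Slc6a9* (-0.84) had the smaller effect in the retina by the same test, and *Stc2* (1.97) and *Mthfd1l* (0.998) the larger. Cell type, promoter, delivery, time and untransduced cells cannot be told apart in these differences.

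Of 140 groups of values of members, 2 held a library whose gap to the nearest other, divided by the range of the group, passed the critical value of Dixon's test. The low *Slc7a11* value of AAV::*nsHif1a* library 4 did not, with a gap of 0.658 of the range where 0.71 is needed. *Ddit3* was 28.4 CPM in AAV::eGFP library 1 of the retina, above the 22.7 to 24.3 CPM of the other 4. *Ppp1r15a* was 30.9 CPM in AAV::*nsHif1a* library 4 of the retina, above the 24.4 to 25.3 CPM of the others. By chance about 1 in 20 groups would be marked in this way.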

How the results depend on the processing

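None of the members called in an experiment or found to differ between the experiments changed direction under an alternative. In the retina, 4 members were upregulated (1.08% of all genes). The number became 1 with edgeR (0.896% of all genes), 1 with voom without quality weights (0.827%) and 1 without the filter (0.452%). It was 2 with upper quartile scaling (1.02%) and 7 with the adjusted *p*-value alone (3.31%). It was 0 in the 7 libraries with *Xist* counts (0.321%) and 1 with the *Xist* class as a covariate (0.551%). When 1 library was left out it was 1 to 5 (0.717% to 1.64% of all genes). In the cells the number was 9 (1.21% of all genes) and became 16 with the adjusted *p*-value alone (2.06%). With the replicate sets as a covariate it was 11 (3.25%), with *Gdf15* and *Slc7a11* added. The sets were drawn from these same libraries, so that fit is no separate support. The number was 18 within replicates 1 and 2 (7.6%), 5 within replicates 3 and 4 (1.14%), and 0 with the replicate sets summed (0 of all genes). When 1 library was left out it was 5 to 15 (0.503% to 7.43% of all genes). The members with the lower effect in the retina numbered 3 (1.25% of all genes), and 1 with the retinas with *Xist* counts alone (0.731%). They numbered 1 to 9 when 1 library was left out (0.675% to 6.79% of all genes). Beyond the smaller number of samples in some of these fits, the cause was not tested. DESeq2, RLE scaling and a minimum count of 30 kept the numbers within 1.5 times in both experiments, and no alternative gave a downregulated member.

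With the replicate number as a block, 1 member was upregulated in the retina (0.748% of all genes) and 8 in the cells (0.658%). With the cells blocked, 4 had the lower effect in the retina (1.93% of all genes). In the retina the same numbers did not deviate together (correlations -0.15 to 0.14), so the retinas share only a number. In the cells the block ended the call of *Atf4* alone. With the adjusted *p*-value alone, 11 members were higher in the cells under the block, where *Atf4*, *Psph*, *Mthfd2*, *Asns* and *Cars1* no longer passed. Without eGFP library 1 or 2 of the cells, 9 members were higher by the adjusted *p*-value. Depth limits *Gdf15* in the retina, with 1 to 8 counts.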
